A study of Homo sapiens with 12 samples.

Results

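The heat shock and DNAJ chaperone genes were taken as all GENCODE protein-coding genes on chromosomes 1 to 22 and X whose symbol is DNAJA, DNAJB or DNAJC with a number, HSPA, HSPB, HSPD, HSPE or HSPH with a number, or HSP90AA1, HSP90AB1 or HSP90B1. This rule found 71 of 19618 protein-coding genes. They were sorted by textbook knowledge into 11 heat-inducible, 6 ER stress-inducible, 38 constitutive and 16 tissue-specific genes. CUT&RUN, in which an antibody tethers a nuclease that releases the DNA around its target, was performed in RT112 cells, a human bladder carcinoma line that the study classed as ARID1A wild type. The 12 samples comprised 3 replicates each of ARID1A with an Abcam antibody, ARID1A with a CST (Cell Signaling) antibody, H3K4me3 and IgG, and no heat or drug treatment is named for them. The regions came as 1 merged list per target, with positions only, so there was no replicate error, the depth behind a region is unknown, and regions of IgG were not analysed here. A region was assigned to a gene when it lay within 1 kb of any annotated transcription start site (TSS), and "both antibodies" means that an Abcam and a CST region did so.

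Chaperones bind unfolded proteins and help them fold, stay soluble or be degraded. HSP70 proteins work in an ATP cycle that J-domain proteins (DNAJ) start and that exchange factors such as HSP110 proteins complete, while HSP90 acts on clients handed over from HSP70, small HSPs hold unfolded proteins, and HSPD1 and HSPE1 form the mitochondrial chaperonin. Heat shock factor HSF1 induces many of these genes through heat shock elements, inverted repeats of the trimer GAA, and the unfolded protein response induces ER chaperones through the ER stress element. H3K4me3 is a histone mark of promoters in use, and ARID1A is a subunit of SWI/SNF, the chromatin remodelling complex.

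Stretches from 8 inducible promoters are shown because the comparison of inducible genes turns on whether the called regions cover these elements. They are reference sequence (hg38), 5′ to 3′ on the strand of the gene, from bases upstream of the canonical TSS that no GENCODE transcript has as exon. Capitals mark heat shock elements of at least 2 repeats (GAANNTTC or TTCNNGAA, where N is any base) and, in HSPA5, the ER stress element (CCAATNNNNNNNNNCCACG). HSPA1A lies at chr6:31815423-31815542 (+), HSPA1B at chr6:31827618-31827737 (+), HSPA6 at chr1:161524420-161524539 (+), HSPH1 at chr13:31161928-31161981 (-), HSP90AA1 at chr14:102087045-102087164 (-), DNAJB1 at chr19:14518408-14518527 (-), DNAJB4 at chr1:78004815-78004934 (+) and HSPA5 at chr9:125241383-125241502 (-).
HSPA1A: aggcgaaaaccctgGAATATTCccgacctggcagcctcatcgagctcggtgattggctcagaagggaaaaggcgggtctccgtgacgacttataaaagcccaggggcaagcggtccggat
HSPA1B: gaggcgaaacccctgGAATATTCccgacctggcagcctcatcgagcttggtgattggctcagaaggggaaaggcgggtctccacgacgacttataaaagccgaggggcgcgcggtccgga
HSPA6: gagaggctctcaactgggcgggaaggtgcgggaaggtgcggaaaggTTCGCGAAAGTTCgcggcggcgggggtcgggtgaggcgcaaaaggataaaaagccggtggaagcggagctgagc
HSPH1: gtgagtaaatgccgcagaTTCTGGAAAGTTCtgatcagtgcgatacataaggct
HSP90AA1: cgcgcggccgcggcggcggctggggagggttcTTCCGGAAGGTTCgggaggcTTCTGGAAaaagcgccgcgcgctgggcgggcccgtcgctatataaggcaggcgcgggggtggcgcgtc
DNAJB1: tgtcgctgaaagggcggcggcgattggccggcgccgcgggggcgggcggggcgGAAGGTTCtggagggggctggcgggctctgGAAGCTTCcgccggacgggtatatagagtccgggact
DNAJB4: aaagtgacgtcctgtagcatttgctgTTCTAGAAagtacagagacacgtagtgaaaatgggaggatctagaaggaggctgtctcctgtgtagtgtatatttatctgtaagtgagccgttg
HSPA5: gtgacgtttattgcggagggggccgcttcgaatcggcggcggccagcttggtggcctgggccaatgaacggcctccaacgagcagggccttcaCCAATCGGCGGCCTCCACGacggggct

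Most chaperone genes carried ARID1A regions of both antibodies at the promoter, and those without were mostly tissue-specific genes or housekeeping J-domain genes. Both antibodies were called at 43 of 71 genes, or 60.6% (95% exact binomial interval 48.3 to 72.0), against a background of 38.2% over all protein-coding genes. H3K4me3 was called at 51 of 71, or 71.8% (59.9 to 81.9), against 53.1% over all genes. At 14 genes, or 19.7% (11.2 to 30.9), no list had a region, against 39.7% over all genes. Among the 51 genes with H3K4me3, 38 had both antibodies, or 74.5% (60.4 to 85.7), and the share over all genes with H3K4me3, 63.8%, lies within that interval. Among the 20 without H3K4me3, 5 had both antibodies, or 25.0% (8.66 to 49.1), and the share over all genes without H3K4me3, 9.40%, also lies within its interval. The intervals take each gene as an independent draw and hold counting error alone, and since promoters in use are frequent among chaperone genes, H3K4me3 is set beside each class below.

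The classes differed most in H3K4me3, which the tissue-specific genes mostly lacked. Both antibodies were called at 9 of 11 heat-inducible genes (81.8%, 48.2 to 97.7), at 5 of 6 ER stress-inducible genes (83.3%, 35.9 to 99.6), at 25 of 38 constitutive genes (65.8%, 48.6 to 80.4) and at 4 of 16 tissue-specific genes (25.0%, 7.27 to 52.4). H3K4me3 was called at 9 of 11, 6 of 6, 34 of 38 and 2 of 16 of them. Inducible genes of either kind had both antibodies at 14 of 17 (82.4%, 56.6 to 96.2), an interval that overlaps that of the constitutive genes, and with H3K4me3 the counts were 13 of 15 inducible (86.7%, 59.5 to 98.3) and 23 of 34 constitutive genes (67.6%, 49.5 to 82.6). The interval of the tissue-specific genes overlaps that of the constitutive genes narrowly and lies below that of the inducible genes of either kind. The inducible and constitutive classes were therefore not told apart at this number of genes.

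**Figure D1:**
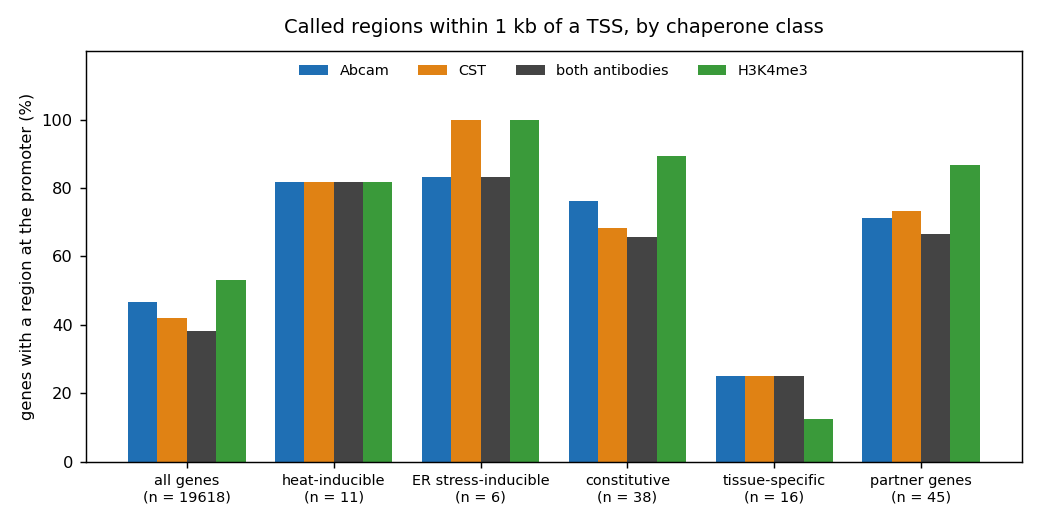
Percentage of genes in each class with an Abcam, CST or H3K4me3 region, or with both antibodies, within 1 kb of a TSS, beside all 19618 protein-coding genes and 45 partner genes of the chaperone system. Bars for heat-inducible genes stand at 81.8% for all 4 measures, and those for tissue-specific genes at 25.0% for ARID1A and 12.5% for H3K4me3.

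Among the heat-inducible genes, the HSP70 genes gave the greatest contrast. HSPA1A and HSPA1B, which encode nearly the same inducible HSP70 protein, stand 12195 bp apart on chromosome 6, and HSPA1L, a testis-enriched relative, starts 260 bp from HSPA1A in the opposite direction. HSPA1B lay at the end of an Abcam region of 6892 bp (chr6:31821190-31828081), wider than 99.8% of that list, and a CST region of 6130 bp (chr6:31821806-31827935), wider than 99.7%. Its H3K4me3 region was 3236 bp wide (chr6:31825124-31828359), and a further H3K4me3 region of 3140 bp (chr6:31829278-31832417) lay over the end of the gene. HSPA1A and HSPA1L had no region of any list within 1 kb, and the nearest region of each list to HSPA1A began 5647 bp (Abcam), 6263 bp (CST) and 5591 bp (H3K4me3) downstream, between the 2 genes or at HSPA1B. So the ARID1A regions covered the space upstream of HSPA1B and ended inside that gene, short of HSPA1A.

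Promoter sequence of the pair is close to identical: 277 of 301 aligned columns matched (92.0%) over 250 bases before and 50 bases after the TSS, and both hold the same heat shock element, at position -106 of HSPA1A and -105 of HSPA1B, counted from the TSS at 0. Reads that mapped to more than 1 place had been removed, so 75-base words with a further copy in the genome were counted. Copies on alternate haplotype sequences were left out of this count. Within 1 kb of the TSS they made up 37.3% at HSPA1A, 37.4% at HSPA1B and 23.8% at HSPA1L. In HSPA1A they made up 77.6% of the 1 kb inside the gene and 0.0% of the 1 kb upstream, and in HSPA1B 77.7% and 0.0%. Inside HSPA1B, the bin of 200 bp that starts 12400 bp from the HSPA1A TSS held 99.0% repeated words. On this scale the regions over the HSPA1B TSS ended at 12538 bp (Abcam), 12392 bp (CST) and 12816 bp (H3K4me3). The ARID1A regions thus ended close to where repeated words begin, and whether lost reads set these ends was not tested. HSPA1A, without regions, and HSPA1B, with them, were nearly equal in the share of repeated words within 1 kb, and the 1 kb upstream of HSPA1A held none. Whether the uniqueness of reads bears on the contrast between these genes was not tested.

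**Figure D2:**
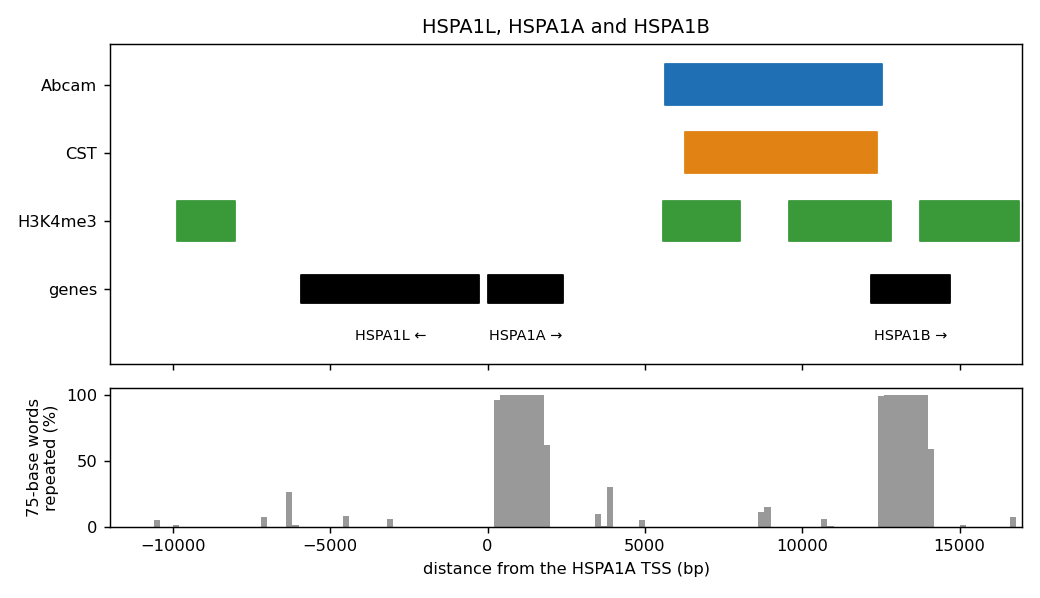
Regions of the 3 lists and the genes HSPA1L, HSPA1A and HSPA1B against distance from the HSPA1A TSS in bp (upper panel, arrows give the direction of transcription). The lower panel gives the percentage of 75-base words with another copy in the genome, alternate haplotypes left out, in bins of 200 bp. Both ARID1A regions start past 5000 bp and end just inside HSPA1B, and repeated words fill the bodies of HSPA1A and HSPA1B but not the space upstream of either.

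HSPA6 encodes a strictly inducible HSP70 found in humans but not in rodents, and it had both antibodies without H3K4me3. Its Abcam region was 1132 bp wide (chr1:161523514-161524645), its CST region 960 bp (chr1:161523826-161524785), and the nearest H3K4me3 region lay 4793 bp from the TSS. These widths are in the lower part of their lists, with 25.2% of Abcam and 16.7% of CST regions narrower. Repeated 75-base words made up 5.29% of the 1 kb upstream and 54.0% of the 1 kb inside the gene. The regions ended shortly past the TSS, as the map of inducible promoters shows, and covered the heat shock element of 3 repeats at -74 and 2 AP-1 words (TGACTCA or TGAGTCA) at -244 and -139. HSPA6 was the only chaperone gene with an AP-1 word within 250 bases before and 50 bases after the TSS. Over all genes, 3.56% hold the word in this window. Within 500 bases on either side of the TSS, 6 of 71 chaperone genes held it (8.45%), 5 of them constitutive, against 9.6% of all genes.

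Neither cytosolic HSP90 gene had its canonical TSS inside regions of both antibodies. HSP90AA1, the stress-responsive HSP90, has its canonical TSS at chr14:102087044 and a distant upstream start next to WDR20. At the canonical TSS there was an H3K4me3 region of 4290 bp, a CST region of 614 bp (chr14:102087173-102087786) that ended 129 bp short of the TSS, and no Abcam region within 9366 bp. Both antibodies were called at the upstream start, with an Abcam region of 1473 bp (chr14:102139077-102140549), a CST region of 2218 bp (chr14:102139053-102141270) and H3K4me3 of 3622 bp. HSP90AA1 thus counted as having both antibodies only through the start it shares with WDR20. Its heat shock elements at -88, -83 and -68 lay in H3K4me3 but in no ARID1A region. HSP90AB1, its constitutive relative, had an Abcam region of 673 bp that ended 86 bp before the canonical TSS, a CST region of 1511 bp over it and H3K4me3 of 4921 bp. HSP90B1, the ER form, was the only HSP90 gene of 3 with its canonical TSS inside regions of both antibodies.

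The inducible J-domain genes differed from each other. DNAJB1, the main partner of inducible HSP70, had regions of both antibodies and H3K4me3 at its canonical start (Abcam 1671 bp at chr19:14517475-14519145, CST 1349 bp, H3K4me3 4519 bp) and again at a group of starts further upstream that face TECR (Abcam 1505 bp, CST 1526 bp, H3K4me3 1992 bp). DNAJB4 had both antibodies at its canonical TSS (Abcam 3099 bp at chr1:78003239-78006337, CST 2254 bp) with the nearest H3K4me3 region 24105 bp away, at its other start. There, all 3 lists had a region, of 1898, 2174 and 4209 bp. All of these also lay within 1 kb of a TSS of FUBP1, so they cannot be assigned to DNAJB4 alone. The Abcam and CST regions ended short of this DNAJB4 start, and the H3K4me3 region covered it. DNAJB4 thus counted as having H3K4me3 only through this region. DNAJA1, a cytosolic partner of HSC70, had H3K4me3 of 3938 bp (chr9:33023254-33027191) and no ARID1A region, the nearest being 3341 bp (Abcam) and 23190 bp (CST) from the TSS. At the canonical TSS, ARID1A therefore lay with H3K4me3 in DNAJB1, lay without it in DNAJB4, and was absent in DNAJA1.

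**Figure D3:**
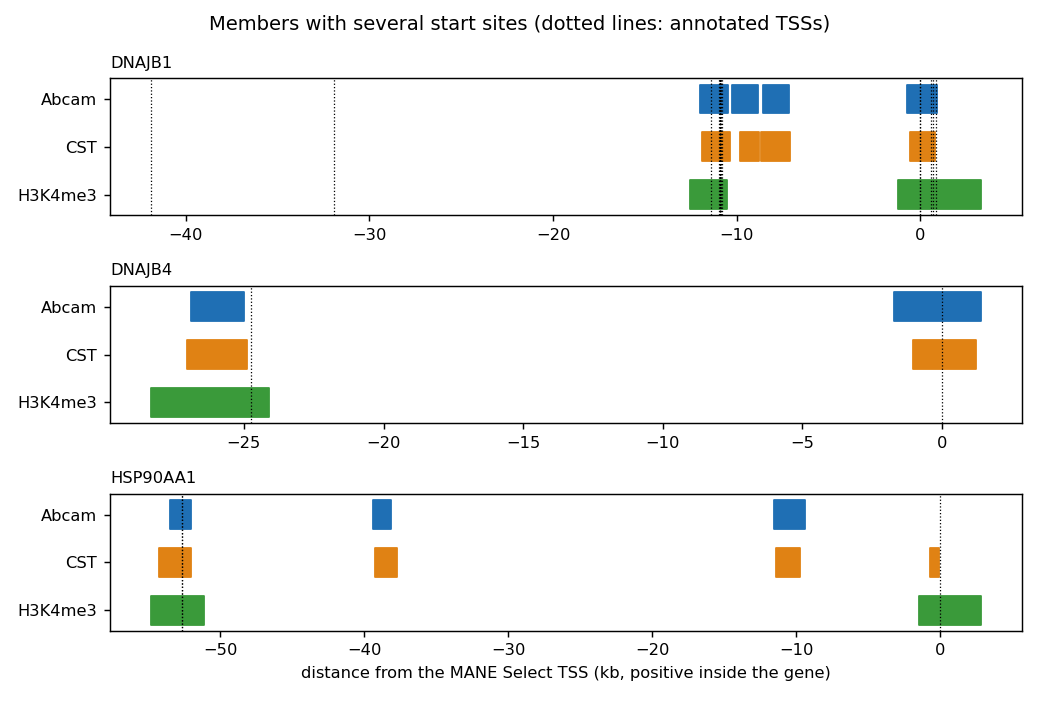
Regions around DNAJB1, DNAJB4 and HSP90AA1 against distance from the MANE Select TSS in kb, with annotated TSSs as dotted lines. In HSP90AA1 the Abcam regions lie away from the canonical TSS, and in DNAJB4 the H3K4me3 region lies only at the upstream TSS.

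The other heat-inducible genes had all 3 lists at the canonical start. HSPH1, the HSP110 exchange factor, had regions of 1722 bp (Abcam, chr13:31161501-31163222), 2088 bp (CST, chr13:31160953-31163040) and 4537 bp (H3K4me3). HSPD1 and HSPE1, which start 539 bp apart in opposite directions, shared 1 region of each list over both canonical TSSs, 1985 bp (Abcam, chr2:197499035-197501019), 1994 bp (CST, chr2:197499469-197501462) and 6178 bp (H3K4me3, wider than 97.2% of its list). HSPD1 also had regions of all 3 lists at a further upstream start next to MOB4, of 1540, 763 and 3088 bp. The pair counts as 2 genes in every total above and is not independent. HSPB1 (HSP27), a widely expressed small HSP, had 1830 bp (Abcam, chr7:76301979-76303808), 1044 bp (CST, chr7:76301938-76302981) and 3947 bp (H3K4me3).

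Of the 6 ER stress-inducible genes, 5 had both antibodies and all had H3K4me3. HSPA5 (BiP, the HSP70 of the ER) had the widest Abcam region of them, 3954 bp (chr9:125240150-125244103, wider than 97.3% of the list), with CST 2264 bp (chr9:125240551-125242814) and H3K4me3 3683 bp. HSP90B1 (GRP94) had 1414 bp (Abcam, chr12:103929561-103930974), 1755 bp (CST) and 3715 bp (H3K4me3), and DNAJC3 (p58IPK) 2680 bp (Abcam, chr13:95675660-95678339), 1757 bp (CST) and 4132 bp (H3K4me3). DNAJB9 (ERdj4), which faces THAP5 at 124 bp, had 2000 bp (Abcam, chr7:108568818-108570817), 1055 bp (CST) and 3276 bp (H3K4me3). The CST region was narrower than the Abcam region at HSPA5, DNAJC3 and DNAJB9 and wider at HSP90B1. DNAJB11 (ERdj3) had a region of each list at each of its 2 starts, and TBCCD1 has a TSS within 1 kb of all of these regions. The CST region nearest the canonical TSS of DNAJB11 (860 bp, chr3:186569773-186570632) ended 88 bp short of it. DNAJC10 (ERdj5), a disulfide reductase, had a CST region of 1682 bp (chr2:182715357-182717038) over its TSS and no Abcam region within 232753 bp.

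**Figure D4:**
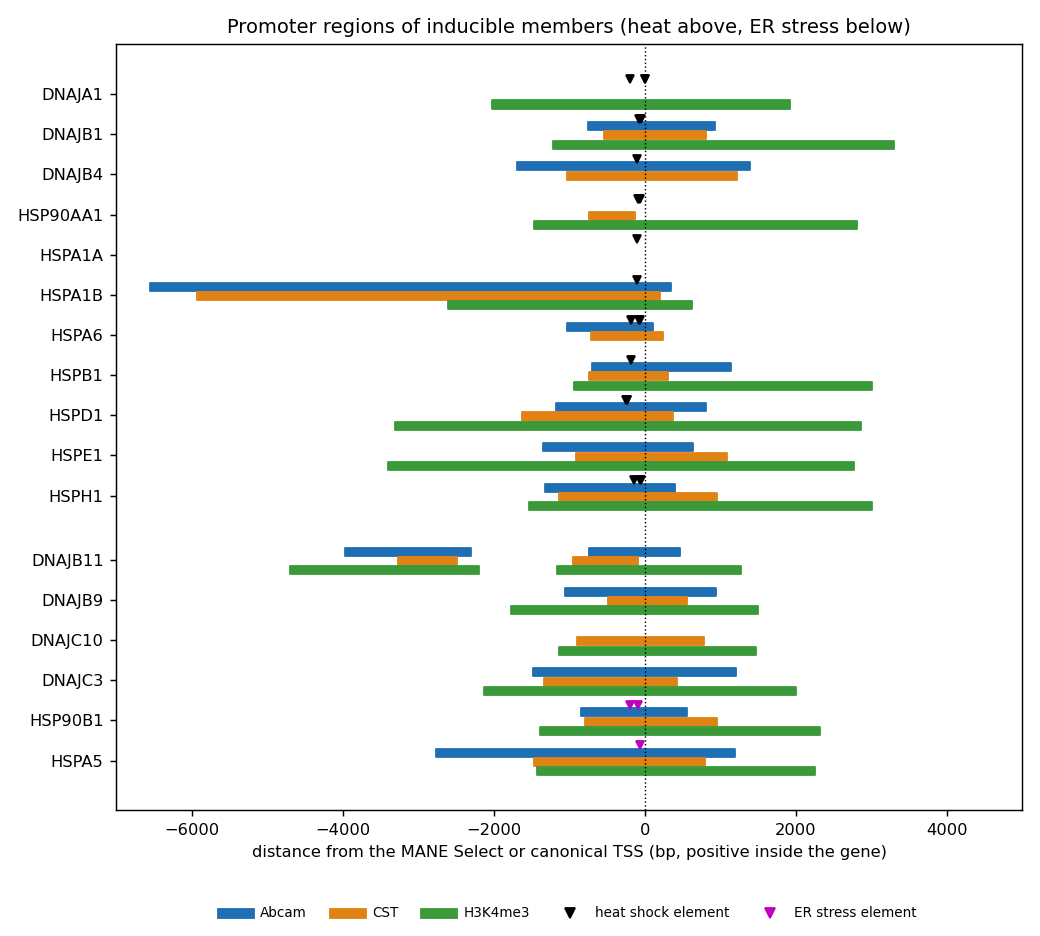
Regions within 1 kb of a TSS in the 17 inducible genes (11 heat-inducible above, 6 ER stress-inducible below), drawn by distance from the canonical TSS in bp, with triangles for heat shock elements (black) and ER stress elements (magenta). Only HSPA1A has no bar, DNAJA1 has H3K4me3 alone, and HSPA6 and DNAJB4 have both antibodies without H3K4me3 at the canonical TSS. Regions at the upstream starts of DNAJB1, DNAJB4, HSP90AA1 and HSPD1 lie outside the drawn range.

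Heat shock elements were frequent in the heat-inducible class, whose members are known for regulation by HSF1, so the count describes the class and tests nothing. An element of at least 2 repeats lay within 250 bases before and 50 bases after the TSS in 10 of 11 heat-inducible genes, 0 of 6 ER stress-inducible, 8 of 38 constitutive and 5 of 16 tissue-specific genes, 23 of 71 in all (32.4%), against 11.0% of all promoters. HSPE1 was the heat-inducible gene without one, and the 3-repeat element of HSPD1 lay 294 bp from its TSS. Elements of 3 repeats (GAANNTTCNNGAA or TTCNNGAANNTTC) were in 7 genes, namely DNAJA1, HSP90AA1, HSPA6, HSPD1, HSPH1, DNAJB6 and HSPA8, against 0.372% of all promoters. The element of HSPA1L is the same bases as that of HSPA1A, in the space between the genes. A heat shock element lay inside regions of both antibodies in 7 of the 10 heat-inducible genes with one (DNAJB1, DNAJB4, HSPA1B, HSPA6, HSPB1, HSPD1 and HSPH1), and not in HSP90AA1, DNAJA1 and HSPA1A. Among all 23 genes with an element, this was so in 14 (60.9%, 38.5 to 80.3), against 27.1% of all genes with one. Of genes with an element and both antibodies, the element lay inside both in 14 of 17 chaperone genes (82.4%, 56.6 to 96.2) and 7 of 8 heat-inducible genes, against 81.3% of all such genes.

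ER chaperone promoters held other words. The ER stress element (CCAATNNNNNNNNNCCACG or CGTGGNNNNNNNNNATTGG) was in HSPA5, at -66, and in HSP90B1, at -194 and -89, against 0.102% of all promoters, and all 3 lay inside regions of both antibodies and H3K4me3. The CCAAT box (CCAAT or ATTGG), which is part of that element, was in 6 of 6 ER stress-inducible and in 28 of 71 chaperone promoters, against 36.1% of all promoters. A match is a run of letters and does not show that a factor binds there.

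Constitutive genes made up the largest class, and those with ARID1A included the main housekeeping chaperones. HSPA8 (HSC70), the constitutive HSP70, had an Abcam region of 2567 bp (chr11:123060967-123063533), a CST region of 914 bp (chr11:123062135-123063048) and H3K4me3 of 6564 bp, wider than 98.0% of its list. HSPA9 (mortalin, the mitochondrial HSP70), HSPA13, HSPA14 and the HSP110 genes HSPA4 and HSPA4L all had the 3 lists at the canonical TSS. The widest pair of regions belonged to HSPB8, a small HSP that works with BAG3 in autophagy, with 4358 bp (Abcam, chr12:119177790-119182147) and 6623 bp (CST, chr12:119174959-119181581). DNAJC16, which faces CASP9 at 279 bp, followed with 3972 bp (Abcam, chr1:15523557-15527528) and 4153 bp (CST, chr1:15523605-15527757), and an H3K4me3 region of only 2162 bp.

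The next in summed width were DNAJB2, a neuronal and ubiquitin-binding J-domain protein (Abcam 1863 bp at chr2:219278336-219280198, CST 2744 bp), DNAJC21, a factor of ribosome assembly (2346 bp at chr5:34928646-34930991, 2023 bp), and DNAJC27, a small GTPase with a J domain (2159 bp at chr2:24970772-24972930, 2188 bp). DNAJC13, an endosomal J-domain protein, had 2141 bp (chr3:132416550-132418690) and 1997 bp, HSPA4L 1988 bp (chr4:127781799-127783786) and 2103 bp, and DNAJC5, the cysteine string protein of secretory vesicles, 1652 bp (chr20:63894619-63896270) and 2347 bp. These 6 lie close together in width, between 1652 and 2744 bp.

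Of the 34 constitutive genes with H3K4me3, 7 had no ARID1A region, and with DNAJA1 they make 8 chaperone genes of this kind. The shares, 7 of 34 (20.6%, 8.70 to 37.9) and 8 of 51 (15.7%, 7.02 to 28.6), are near the 18.8% over all genes with H3K4me3. They were DNAJB14 (H3K4me3 2693 bp at chr4:99945018-99947710), DNAJC2 (2129 bp at chr7:103343184-103345312), DNAJC8 (1841 bp at chr1:28231383-28233223), DNAJC11 (1775 bp at chr1:6700251-6702025), DNAJC19 (2494 bp at chr3:180988075-180990568), DNAJC24 (1774 bp at chr11:31369168-31370941) and DNAJC30 (3800 bp at chr7:73680958-73684757). DNAJC2 (the ribosome-associated MPP11), DNAJC8 (a spliceosome protein), DNAJC11 and DNAJC19 (both mitochondrial), and DNAJC24 (diphthamide synthesis) serve housekeeping steps. Their H3K4me3 regions, other than that of DNAJC30, ran from 1774 to 2693 bp, below the median of 3156 bp over all genes with one. Distances to the nearest ARID1A region ran from 2360 bp (CST at DNAJC8) to 860606 bp (Abcam at DNAJC19). All 8 were J-domain genes, whereas the 3 HSP110, 7 HSP70, 3 HSP90, 3 small HSP and 2 chaperonin genes with H3K4me3 all had both antibodies. Of 21 DNAJC genes with H3K4me3, 12 had both (57.1%, 34.0 to 78.2), an interval that holds the background of 63.8%.

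Regions of a single antibody were few. Abcam alone was called at DNAJA2, DNAJB12, DNAJC4 and DNAJC15, and CST alone at DNAJC10 and DNAJC14. These are 5.63% (1.56 to 13.8) and 2.82% (0.343 to 9.81) of the chaperone genes, intervals that hold the 8.42% and 3.67% over all genes. DNAJC15, a mitochondrial J-domain protein, was the narrowest of these with 794 bp (chr13:43023240-43024033) and had no H3K4me3 within 750205 bp. Whether the other antibody fell below the calling threshold at these genes was not tested.

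Of 16 tissue-specific genes, 12 had no region of any list. They include HSPA1L, HSPA2 and DNAJB8 of the testis, HSPB2, HSPB3 and HSPB7 of muscle and heart, DNAJB13 of sperm and cilia, HSPA12B of endothelium, and HSPB9, DNAJB7, DNAJC5G and DNAJC12. HSPA12A, enriched in brain, had all 3 lists (Abcam 1930 bp at chr10:116741951-116743880, CST 1947 bp, H3K4me3 2342 bp). HSPB6 (HSP20), a small HSP of muscle, had Abcam 1924 bp (chr19:35757126-35759049), CST 1888 bp and H3K4me3 2968 bp over a start that faces PROSER3, and the Abcam region ended 97 bp from its canonical TSS. DNAJC5B, a relative of the cysteine string protein, had both antibodies over its TSS at 2955 bp (chr8:66020576-66023530) and 2977 bp without H3K4me3, and DNAJC6 (auxilin, which uncoats vesicles in neurons) had them only at an upstream start, 54104 bp (Abcam) from the canonical TSS, with widths of 1972 bp (chr1:65253468-65255439) and 1140 bp. With DNAJB5, DNAJC18 and HSPA6, these are the 5 genes with both antibodies and no H3K4me3 region at any start. DNAJC22 was the only constitutive gene with no region of any list.

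CpG content moved with H3K4me3 and with class. In 500 bases on either side of the TSS, the median ratio of observed to expected CpG was 0.804 in heat-inducible, 0.797 in ER stress-inducible, 0.788 in constitutive and 0.417 in tissue-specific genes, against 0.727 over all genes. It was 0.804 in chaperone genes with H3K4me3 and 0.553 in those without, against 0.802 and 0.437 over all genes with and without it. The part of CpG content in the low ARID1A share of tissue-specific genes was not tested.

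Widths give the only graded value in the lists. The median width of the widest promoter region was 1830 bp (n = 47) for Abcam, against 1741 bp over all genes with a region, 1755 bp (n = 45) for CST, against 1613 bp, and 3228 bp (n = 51) for H3K4me3, against 3156 bp. The 95% intervals of these medians, 1652 to 1985, 1473 to 1994 and 2842 to 3773 bp, hold the values over all genes. In heat-inducible genes with H3K4me3 its median width was 4290 bp (n = 9, from 3236 to 6178 bp), and in constitutive genes 2872 bp (n = 34, from 1606 to 6564 bp). The ranges overlap. The 95% intervals of these medians, 3938 to 6178 bp and 2623 to 3343 bp, do not, but they take each width as independent. HSPD1 and HSPE1 share the region of 6178 bp, which counts for both genes among the 9 widths. The intervals therefore cannot be read as a separation of the classes. The DNAJB4 width, 4209 bp, is from its upstream start, in a region also near FUBP1, and not from its canonical TSS. No test was run. For ARID1A the heat-inducible and constitutive medians were 1830 and 1686 bp (Abcam) and 1994 and 1546 bp (CST).

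**Figure D5:**
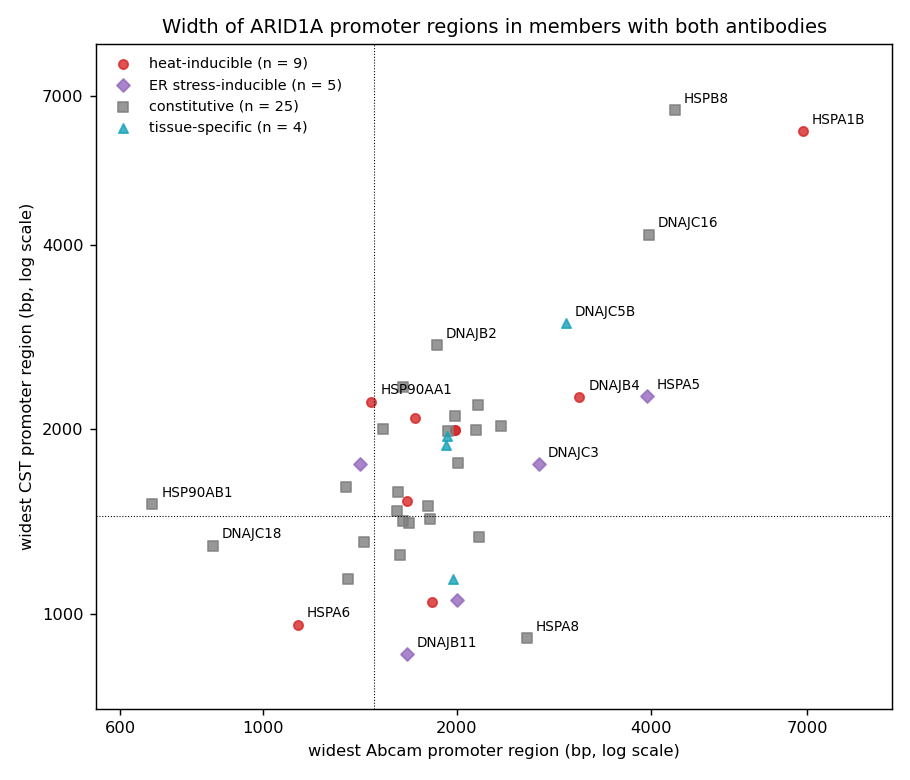
Width of the widest Abcam promoter region against that of the widest CST promoter region, in bp on log scales, for the 43 chaperone genes with both antibodies, with marker and colour by class and dotted lines at the median width of each whole list (1486 and 1442 bp). HSPA1B, HSPB8 and DNAJC16 stand apart at the upper right, and HSPA8 lies low for CST at 914 bp.

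At most genes with both antibodies the regions coincided with each other and with H3K4me3. The canonical TSS lay inside regions of both antibodies in 37 of 43 genes (86.0%, 72.1 to 94.7), against 81.8% over all genes with both. The widest Abcam region lay wholly inside H3K4me3 in 28 of 38 genes with all 3 lists (73.7%), against 72.7% over all such genes, and the widest CST region also in 28, against 74.9%. HSPA1B, HSPB8, HSPA5 and DNAJC16, which had wide ARID1A regions, were among those where neither was inside. An Abcam and a CST region shared at least 50% of each other in 41 of 43 genes (95.3%, 84.2 to 99.4), HSP90AB1 and HSPA8 being the exceptions, against 90.4% over all genes with both. The Abcam midpoint was upstream of the canonical TSS in 8 of 8 HSP70 genes, 5 of 5 ER stress-inducible and 6 of 8 heat-inducible genes, and in 11 of 29 constitutive genes. The CST midpoint was upstream in 6 of 8, 4 of 6, 6 of 9 and 13 of 26 of the same groups. Over all chaperone genes it was upstream in 24 of 45 for Abcam (53.3%), against 51.0% over all genes, and in 25 of 44 for CST (56.8%), against 54.6%, so both shares were near the background.

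ARID1A regions shared by both antibodies also lay in and around the genes, away from their own promoters. Within the gene or 10 kb of it there were 73 such regions at 46 genes (64.8%, 52.5 to 75.8), against 42.5% of all genes. Of these, 49, at 28 genes (39.4%, 28.0 to 51.7), were at no promoter of another gene, against 32.9% of all genes, which the interval holds, and 2 of the 49 overlapped H3K4me3. The median gene length was 22320 bp, against 27335 bp over all genes. HSPB1 had 3 of them upstream, at 1689, 3287 and 7370 bp from the TSS, the farthest being 5241 bp (Abcam, chr7:76290063-76295303) and 5451 bp (CST) wide and none overlapping H3K4me3. HSP90AA1 had 2 in its introns, DNAJC5B had 4 in its body and DNAJC12, without a promoter region, had 3 in introns. DNAJB1 had 2 Abcam regions past its end that a single CST region of 6914 bp covered.

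Partner genes of the chaperone system, 45 in number, had ARID1A about as often as the chaperone genes. Both antibodies were called at 30 (66.7%, 51.0 to 80.0), H3K4me3 at 39, and both antibodies at 28 of those 39 (71.8%, 55.1 to 85.0), against the background of 63.8%. Of the heat shock factors, HSF1 had regions of 1942 (Abcam), 1842 (CST) and 4448 bp (H3K4me3), HSF2 of 1521, 1321 and 2420 bp, and HSF4, the lens factor, had CST only. The cytosolic chaperonin had both antibodies at 7 of 8 subunit genes, and HSP90 co-chaperones at 6 of 9. CDC37, CHORDC1 and FKBP4 were the co-chaperones with H3K4me3 and no ARID1A region, a group completed by STUB1 (the ubiquitin ligase CHIP, H3K4me3 6689 bp), SIL1, GAK and SERPINH1. Wide regions of both antibodies lay at BAG3 (3672 bp for Abcam and 2139 bp for CST), CCT3 (4111 and 1644 bp) and PTGES3, the HSP90 co-chaperone p23 (2041 and 3465 bp). The partner genes without H3K4me3 included BAG2, CRYAA and CRYAB, which had no region of any list, HSF4, and CLPB, which had both antibodies.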

How the data were processed

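RT112 cells were profiled by CUT&RUN with 4 antibodies and 3 replicates each. Per the methods and labels, the authors trimmed adapters (cutadapt), aligned reads to GRCh38 and E. coli (bwa-mem2), removed duplicates (Picard) and reads without a unique position (samtools), scaled replicates by E. coli spike-in reads, called peaks (SEACR) and joined replicates with bedtools. SEACR was run in relaxed mode per the methods but in stringent mode per the names of the lists, so the threshold is uncertain. Versions are not given in the sources used here. The deposited lists hold chromosome, start and end only, with no signal or p-value. Joining replicates keeps a region that 1 replicate may have carried.

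Regions were mapped to GENCODE 44 promoters on hg38 (1 kb on either side of each TSS of a protein-coding transcript, at least 1 bp of overlap). Regions elsewhere (152 of Abcam, 159 of CST, 14 of H3K4me3) were left out, as were 2 readthrough genes and 2 symbols (DNAJB3, HSPB11) that are not protein-coding symbols there. The canonical TSS is that of the MANE Select or Ensembl canonical transcript. Shares have exact (Clopper-Pearson) intervals, and no test was run. Motifs were searched on both strands. Words of 75 bases were matched on both strands of hg38 without its alternate haplotype and fix sequences, so copies on those were not counted. Python 3.11.15, scipy 1.17.1, numba 0.67.0, Biopython and matplotlib 3.10.9 were used, and the overlap code was tested on simulated regions with known answers.

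Members, classes, partner genes and lists were chosen with earlier results of these data known. Classes come from textbook knowledge. All members may be named. Coordinates are given for inducible members, tissue-specific members with a region, the 8 constitutive members with the largest sum of widths of both antibodies, and members with H3K4me3 and no ARID1A. Coordinates of a few other members were added after their values were seen. Partner genes named are those without H3K4me3, with H3K4me3 and no ARID1A, and the 4 widest, with others as examples, and some genes that this rule takes up were omitted. Alternatives were windows of 500 bp and 3 kb, the canonical TSS, wide regions, overlap by 50% of each region, other classes and other definitions of the heat shock element.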

Additional observations from a re-analysis of the deposited data

How the results depend on the processing

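Of 48 alternatives, 39 left a count within 1.5 times its reported value or a median width within the spread. Dropping every region narrower than its list's median width lowered members with both antibodies to 25 of 71 (21.4% of all genes), members with H3K4me3 to 27 (29.0%), both antibodies among these to 14 of 27 (49.1%), ER stress-inducible members to 2, constitutive members to 14 and partner genes to 17, since fewer regions remained. Counting the 7 borderline members as inducible moved heat-inducible members with both antibodies to 15 of 17. ER stress-inducible members then stood at 6 of 7 and constitutive members at 18 of 31. The inducible and constitutive shares thus lay further apart under this choice, for which no intervals are given. Heat shock elements of 3 repeats were in 7 members, and elements within 500 bases of the TSS in 40 (32.7% of all genes). Over the other alternatives, members with both antibodies ranged from 41 to 45: the window of 3 kb added DNAJC4 and DNAJC8, the canonical TSS alone lost DNAJC6 and HSP90AA1, and overlap by 50% lost HSP90AB1 and HSPA8. No paired analysis was possible because the lists were merged over replicates, so no replicate could be left out either. Regions could not be ranked by signal, IgG regions were not analysed here, and a region missing from a list may lie just under the threshold.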

Other observations

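Another protein-coding gene started within 1 kb of a TSS in 22 of the 71 members. For DNAJC25, which is among the 22, the only such gene was its own readthrough, DNAJC25-GNG10. This was so in 14 of the 38 members with both antibodies and H3K4me3, in 4 of the 8 with H3K4me3 and no ARID1A (DNAJA1 with APTX, DNAJC2 with PSMC2, DNAJC24 with DCDC1 and DNAJC30 with BUD23), in 0 of the 5 with both antibodies and no H3K4me3, and in 4 of the 14 with neither (DNAJC5G, HSPA1A, HSPA1L and HSPB2). At these promoters, that of DNAJC25 apart, a region cannot be assigned to 1 gene of the pair. The share of all protein-coding genes with such a neighbour is not given here, so these counts cannot be read as particular to the members.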
